A study of Mus musculus with 4 samples.

Results

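The transcription factor p53, encoded by *Trp53*, and a set of its regulators and target genes were read in KL cells that a donor had given rise to. KL cells are bone marrow myeloid progenitors that lack lineage markers and Sca-1 and carry c-Kit. The genes were chosen as a list of 10 symbols, matched to the symbol column of the gene counts, and 8 of the 10 matched a row among 12067 genes. These were *Trp53*, *Mdm2*, *Mdm4*, *Cdkn1a*, *Ccng1*, *Trp53inp1*, *Sesn2* and *Ei24*. Counts of *Phlda3* and *Zmat3* were not analysed here.

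Quant-seq, which counts each poly-A transcript near its 3′ end, was performed on 2 BcorΔE9-10 and 2 BcorWT libraries. The BcorΔE9-10 donors carried scl-Cre-ERT + and Bcorfl/y, and the BcorWT donors carried Bcorfl/y with no Cre listed. In Bcorfl/y the loxP sites flank 2 internal exons of *Bcor*, a gene of chromosome X that encodes a Polycomb corepressor, and Cre removes them. The Cre is driven by regulatory sequence of *Tal1* (*Scl*) that is active in haematopoietic stem cells, so recombination takes place upstream of the cells measured. The study's methods describe donors of 3 to 6 months, all given tamoxifen (5 mg in total), and male donors for molecular work. Donor bone marrow cells went into congenic female *Ptprca* recipients, which were given a sub-lethal 5.5 Gy that leaves host blood cells, and KL cells of donor origin (CD45.2) were sorted 20 weeks later. The labels do not say whether a library came from 1 recipient or from several, so p-values measure the spread between these libraries.

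p53 is a short-lived transcription factor that is stabilised by DNA damage, oncogene activity and ribosomal stress. The ubiquitin ligase Mdm2 marks it for degradation, Mdm4 binds and masks its activation domain, and *Mdm2* is itself a p53 target, which closes a feedback loop. The targets halt the cell cycle, promote repair, limit growth or trigger apoptosis, and in blood stem and progenitor cells p53 is known to restrain self-renewal and to set the sensitivity to irradiation. Much of its regulation acts on the protein, which these counts do not measure.

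p53 binds a pair of 10-base units in tandem, and 2 of the listed genes carry a close match beside an annotated start. RefSeq promoter windows (GRCm38.p6, 250 bases before to 50 after a start) were found for 8 of the 10 genes, in 10 windows. *Trp53inp1* and *Zmat3* had no window, and sequence outside the windows was not searched. Both strands of each window were searched for the full 20-base p53 consensus site without a spacer. At most 1 mismatch was found in 2 of the 10 windows, 1 each of *Cdkn1a* and *Ccng1*, and in 29 of all 32851 windows (0.0883%). The *Cdkn1a* window lies at chr17:29090729-29091028 on the plus strand and the *Ccng1* window at chr11:40755237-40755536 on the minus strand. They are shown because, as given below, these genes share the kind of site but not the pattern across the libraries, and capitals mark the 20-base match.
Cdkn1a: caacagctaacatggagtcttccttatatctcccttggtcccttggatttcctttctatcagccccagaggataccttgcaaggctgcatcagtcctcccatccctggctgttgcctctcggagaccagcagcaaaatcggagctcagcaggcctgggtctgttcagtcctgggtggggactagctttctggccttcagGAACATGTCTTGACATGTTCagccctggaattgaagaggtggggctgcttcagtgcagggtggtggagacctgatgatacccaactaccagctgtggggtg
Ccng1: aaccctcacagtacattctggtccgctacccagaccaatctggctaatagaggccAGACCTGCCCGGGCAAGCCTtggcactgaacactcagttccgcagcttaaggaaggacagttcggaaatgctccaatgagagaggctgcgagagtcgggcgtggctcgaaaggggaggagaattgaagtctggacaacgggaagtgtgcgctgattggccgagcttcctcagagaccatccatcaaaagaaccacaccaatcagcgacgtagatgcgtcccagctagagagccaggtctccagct
The *Cdkn1a* match ends 32 bases before the upstream of 2 RefSeq starts and 2822 bases before the downstream one. The *Ccng1* match ends 176 bases before its start.

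A single 10-base unit without mismatch was present in 5 of the 10 windows, each of a different gene, and in 8.36% of all windows. Apart from *Cdkn1a* and *Ccng1* these were *Trp53* (chr11:69580284-69580293), *Mdm2* (chr10:117710935-117710944) and *Ei24* (chr9:36797335-36797344). They are printed with 5 bases on either side to show how the unit varies among the genes read here, with the unit in capitals.
Trp53: cggaaGGACTTGCCCttact
Mdm2: gatagGAACTTGCCTagcga
Ei24: ggcccGGGCATGCCCagtgt
The windows of *Mdm4*, *Sesn2* and *Phlda3* held no such unit. A match describes the letters of a window and was not tested for binding.

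The libraries held between 3825289.5 and 6253100.5 counts, so that 3 counts correspond to 0.480 to 0.784 CPM before scaling (CPM, counts of a gene relative to a common library total). The lincRNA *Gm42418* held 1.43% of BcorWT replicate 2 and between 14.3 and 27.9% of the other libraries, and the levels below are CPM scaled by edgeR's TMM factors. *Bcor* had 104 and 113 counts in BcorΔE9-10 and 58 and 79 in BcorWT, read from the 3′ end that the deletion leaves in place, so they do not check the genotype. All 13 progenitor markers were present, with *Kit* between 29.4 and 61.9 CPM. Of 8 genes for the lineages gated out, 3 matched a row, of which *Itgam* ranged from 73.7 to 159 CPM. All 7 mature neutrophil markers were present, with a summed level of 63232 and 154919 CPM in BcorΔE9-10 and of 94248 and 143200.0 CPM in BcorWT. *Xist*, expressed by female cells, had 2.40 and 3.91 CPM in BcorΔE9-10 and 18.7 and 19.0 CPM in BcorWT. Donors used for molecular work were described as male and recipients as female, and the part of host cells in the results below was not tested. In bulk libraries such as these, a change in the number of cells of a type and a change in RNA per cell cannot be told apart.

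To ask whether the p53 pathway differed between BcorΔE9-10 and BcorWT KL cells, each gene was read from a fit over all 12067 genes. *Cdkn1a*, *Sesn2* and *Trp53inp1* were higher in both BcorΔE9-10 libraries than in either BcorWT library, and *Trp53* and *Mdm4* were lower. *Mdm2*, *Ccng1* and *Ei24* overlapped between the genotypes. None of the 8 passed an adjusted p of 0.05 (0 of 8 in edgeR's quasi-likelihood test with Benjamini-Hochberg adjustment), beside 0.0166% of all genes. At an unadjusted p under 0.05 there was 1 of 8, *Cdkn1a*, where all genes gave 4.42% (1.34% higher and 3.07% lower in BcorΔE9-10). limma-voom and DESeq2 likewise gave 0 of 8 after adjustment, beside 4 and 43 of all 12067 genes, and 1 of 8 before it, beside 515 and 506. The groups did not overlap for 5 of 8 genes, 3 higher and 2 lower, whereas 33.9% of all genes showed this, 16.8% higher and 17.1% lower. The median log2 fold change of the 8 genes was -0.03, the same to 2 decimals as the median of all genes.

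**Figure D1:**
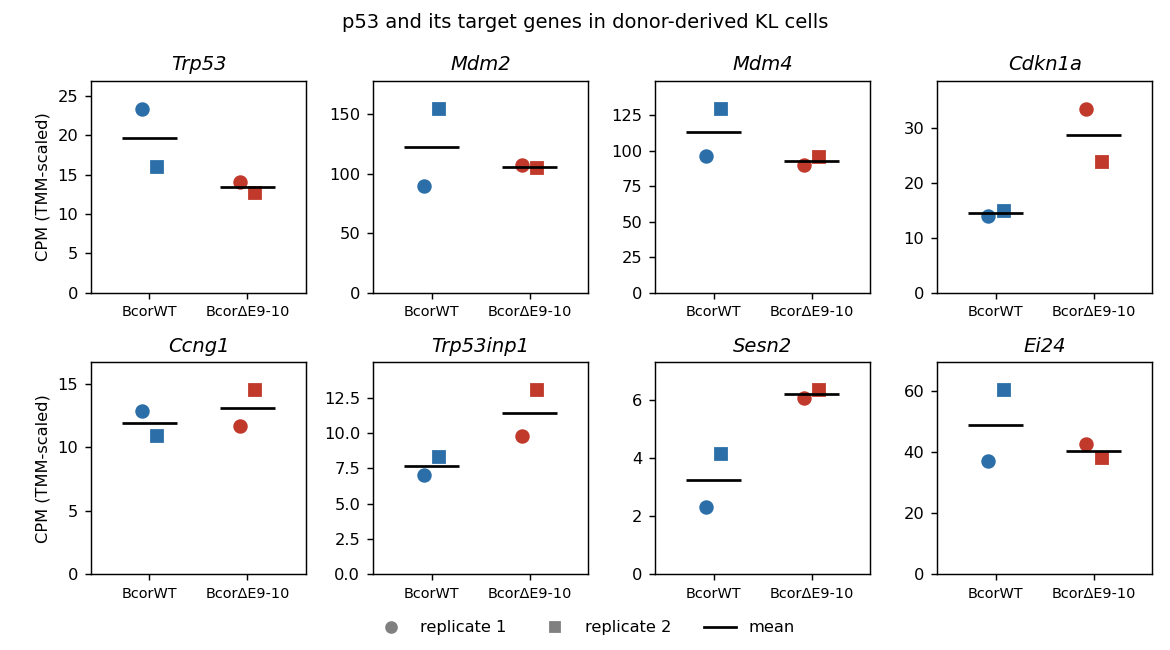
Level of each gene in each library in TMM-scaled CPM (vertical axis, from 0, its range differing between panels), for BcorWT (blue) and BcorΔE9-10 (red), with circles for replicate 1, squares for replicate 2 and a line for the mean of 2. *Cdkn1a* stands at 33.5 and 23.8 CPM in BcorΔE9-10 above 14.0 and 14.9 CPM in BcorWT, whereas the panels of *Mdm2* and *Ei24* show a wide gap between the BcorWT libraries.

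*Trp53* itself (ENSMUSG00000059552, chromosome 11 from 69580359 to 69591873, plus strand, GRCm38) had 76 and 78 counts in BcorΔE9-10 replicates 1 and 2 and 80 and 85 in BcorWT replicates 1 and 2. These nearly equal counts came from libraries of different depth. Scaled, its level was 14.0 and 12.7 CPM in BcorΔE9-10 against 23.4 and 16.0 in BcorWT, so the groups did not overlap but BcorWT replicate 1 stood well above the other three libraries. The means were 13.4 ± 0.941 CPM (SD, n = 2) and 19.7 ± 5.21. The log2 fold change was -0.55 (standard error 0.39, 95% interval -1.44 to 0.34), with an edgeR adjusted p of 0.945. It was negative with each library left out, from -0.80 without BcorWT replicate 2 to -0.26 without BcorWT replicate 1. Without BcorWT replicate 2 the unadjusted p was 0.0490 and the edgeR adjusted p 0.869. The processed pseudogene *Trp53-ps* on chromosome 17 is 94.9% identical to the *Trp53* transcript over 1170 aligned bases. Reads from such a copy could be counted on either locus. *Trp53-ps* matched no row of the gene counts, so its level cannot be set beside that of *Trp53*.

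By centred log2 CPM over the 4 libraries, the genes most like *Trp53* among 8093 with a mean of at least 10 CPM were *Gm10138*, *Cep164*, *Mtm1*, *Trappc2l* and *Nlk*. Their root mean square differences from *Trp53* lay between 0.0207 and 0.0659 on the log2 scale. *Gm10138*, the closest, had 12.6 and 11.1 CPM in BcorΔE9-10 and 20.4 and 13.7 CPM in BcorWT. With 4 libraries, a close match describes little more than the order and spacing of 4 values.

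Like *Trp53*, both negative regulators were spread more widely in BcorWT, whose libraries were the least alike of any pair (correlation of log2 CPM across genes 0.893, against 0.947 in BcorΔE9-10). *Mdm2* (chromosome 10, 117688875 to 117710758, minus strand) had 582 and 640 counts in BcorΔE9-10 and 306 and 821 in BcorWT. Its level was 108 and 104 CPM against 89.4 and 154 CPM. Both BcorΔE9-10 libraries therefore lay between the BcorWT libraries. The log2 fold change was -0.20 (standard error 0.36, 95% interval -1.04 to 0.63, edgeR adjusted p = 0.965), and it turned to 0.25 without BcorWT replicate 2.

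*Mdm4* (chromosome 1, 132959484 to 133030561, minus strand), the partner of Mdm2 that lacks an effective ligase of its own, had 486 and 585 counts in BcorΔE9-10 and 329 and 688 in BcorWT. This gave 89.8 and 95.4 CPM against 96.1 and 129 CPM. The groups did not overlap, but the highest BcorΔE9-10 library and the lowest BcorWT library were nearly level. For *Mdm4* the log2 fold change was -0.29 (standard error 0.32, 95% interval -1.03 to 0.46, edgeR adjusted p = 0.952), and without BcorWT replicate 2 it was -0.05. The processed pseudogene *Mdm4-ps* on chromosome X is 94.1% identical to *Mdm4* over 4187 aligned bases and had 6 and 35 counts in BcorΔE9-10 and 9 and 17 in BcorWT. Its counts were thus small beside those of *Mdm4*.

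*Cdkn1a* (ENSMUSG00000023067, chromosome 17, 29090976 to 29100727, plus strand) encodes p21, the inhibitor of cyclin-dependent kinases through which p53 halts the cell cycle. It had 181 and 146 counts in BcorΔE9-10 and 48 and 79 in BcorWT. Its level was 33.5 and 23.8 CPM in BcorΔE9-10 and 14.0 and 14.9 CPM in BcorWT, and the BcorWT libraries were close to each other. The means were 28.6 ± 6.83 CPM (SD, n = 2) and 14.4 ± 0.600. The log2 fold change was 0.98 (standard error 0.36, 95% interval 0.15 to 1.81), with an unadjusted p of 0.0260 and an edgeR adjusted p of 0.945. Over the alternative settings the adjusted p ran from 0.141 to 1.00.

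The difference in *Cdkn1a* had the same sign with each library left out. It was 0.72 without BcorΔE9-10 replicate 1, 1.21 without BcorΔE9-10 replicate 2, 0.94 without BcorWT replicate 1 and 1.03 without BcorWT replicate 2. When a library is left out, its group has no spread of its own. The p-values of such fits therefore do not show which libraries the difference rested on. The upstream RefSeq start that lies beside the p53 match and the downstream one cannot be separated by counts given per gene. Haemoglobin markers of erythroid cells ordered the libraries the same way by genotype, since the 4 of 7 erythroid markers that matched summed to 73.0 and 69.8 CPM in BcorΔE9-10 and to 19.3 and 45.9 CPM in BcorWT. *Alas2*, *Epor* and *Slc4a1*, defining genes of that lineage, were not matched. *Car1* and *Klf1*, progenitor markers of the erythroid branch singled out after their values were seen, were also higher in both BcorΔE9-10 libraries, with 141 and 124 counts of *Car1* against 32 and 23, and 24 and 17 counts of *Klf1* against 1 and 4. *Gata1*, the erythroid factor of the same list, overlapped between the genotypes, with 22 and 10 counts against 5 and 22. Eosinophil markers lay the other way, since the 4 of 5 that matched summed to 175 and 133 CPM in BcorΔE9-10 and to 256 and 349 CPM in BcorWT, and each of the 4 (*Epx*, *Prg2*, *Ear1* and *Ear2*) was lower in both BcorΔE9-10 libraries. The part of these cells in the results for *Cdkn1a* and the other genes was not tested.

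**Figure D2:**
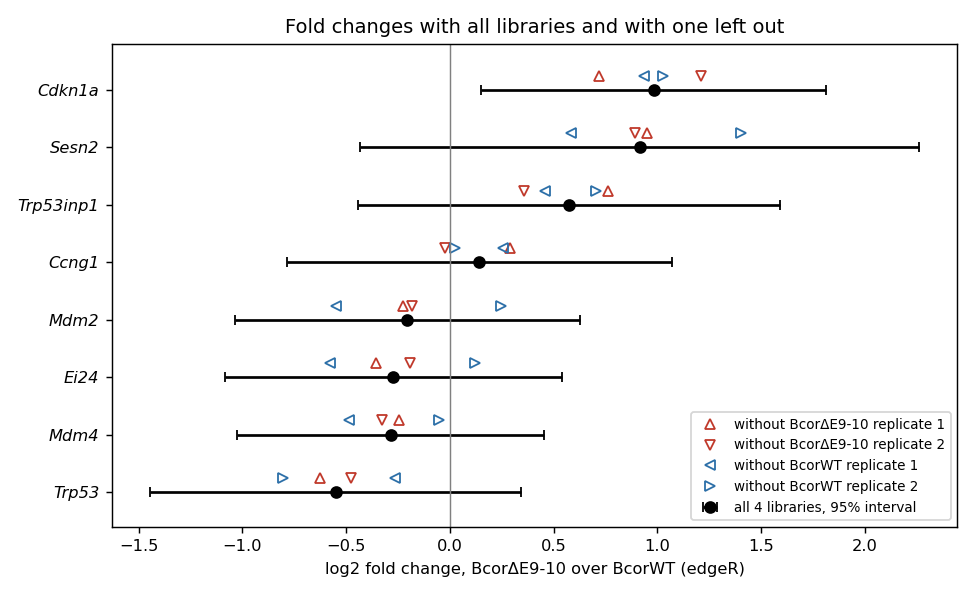
log2 fold change of each gene, BcorΔE9-10 over BcorWT, in edgeR with all 4 libraries (black, bars are 95% intervals) and with each library left out (open triangles). *Cdkn1a* alone has an interval that excludes 0 (0.15 to 1.81), and the triangles of *Mdm2*, *Ei24* and *Ccng1* fall on both sides of 0.

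*Ccng1* (chromosome 11, 40748552 to 40755311, minus strand), which encodes cyclin G1, a p53 target that acts back on Mdm2, was the other gene with a near-consensus site in its window. It had 63 and 89 counts in BcorΔE9-10 and 44 and 58 in BcorWT, or 11.6 and 14.5 CPM against 12.8 and 10.9 CPM. The genotypes alternated in the order of the libraries. Its log2 fold change was 0.14 (standard error 0.40, 95% interval -0.79 to 1.07, edgeR adjusted p = 0.976), and it was -0.02 without BcorΔE9-10 replicate 2. The interval includes the value of 0.98 estimated for *Cdkn1a*, so a difference of that size was not excluded for *Ccng1*.

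*Trp53inp1* (chromosome 4, 11156431 to 11174379, plus strand) encodes a stress-induced protein with roles in p53-dependent apoptosis and in autophagy. It had 53 and 80 counts in BcorΔE9-10 and 24 and 44 in BcorWT, which corresponded to 9.80 and 13.0 CPM against 7.01 and 8.28 CPM. Both BcorΔE9-10 libraries were above both BcorWT libraries. *Trp53inp1* had a log2 fold change of 0.57 (standard error 0.44, 95% interval -0.44 to 1.59, edgeR adjusted p = 0.945), and it lay between 0.36 and 0.76 with 1 library left out.

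*Sesn2* (chromosome 4, 132492032 to 132510501, minus strand) encodes Sestrin 2, a leucine sensor and inhibitor of mTORC1 that is also induced by the integrated stress response. It was the lowest of the 8 genes by counts, with 33 and 39 in BcorΔE9-10 and 8 and 22 in BcorWT. Its level was 6.10 and 6.36 CPM against 2.34 and 4.14 CPM, so the BcorΔE9-10 libraries were alike and the BcorWT libraries were spread below them. The log2 fold change of 0.91 (standard error 0.58, 95% interval -0.43 to 2.26, edgeR adjusted p = 0.945) was close in size to that of *Cdkn1a* but had a wider interval. It ranged from 0.58 without BcorWT replicate 1 to 1.40 without BcorWT replicate 2.

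*Ei24* (chromosome 9, 36779159 to 36797393, minus strand) encodes a membrane protein of the endoplasmic reticulum that was isolated as a gene induced by etoposide through p53. It had 231 and 234 counts in BcorΔE9-10 and 127 and 320 in BcorWT, or 42.7 and 38.1 CPM against 37.1 and 60.2 CPM. As for *Mdm2*, the BcorΔE9-10 libraries lay between the BcorWT libraries. Its log2 fold change was -0.27 (standard error 0.35, 95% interval -1.08 to 0.54, edgeR adjusted p = 0.956), and it turned to 0.12 without BcorWT replicate 2. The antisense gene *Gm26787* overlaps the last 500 bases of an *Ei24* transcript on the opposite strand. The study's text does not state whether counting used the strand, so the *Ei24* counts are uncertain to that extent. No annotated gene overlapped the last 500 bases of coding transcripts of the other seven.

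Ratios within a library do not depend on how libraries are scaled to each other. The share of *Cdkn1a* in the counts of *Cdkn1a* and *Trp53* together was 70.4% (exact 95% interval 64.4 to 75.9) and 65.2% (58.5 to 71.4) in BcorΔE9-10. In BcorWT it was 37.5% (29.1 to 46.5) and 48.2% (40.3 to 56.1). *Cdkn1a* and *Trp53* had the highest and the lowest fold change of the 8 genes, so this share restates their levels and adds no separate evidence. With 2 libraries a group the smallest 2-sided p of an exact permutation test is 0.333, and no such test was made. The intervals of the shares leave out the spread between libraries.

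The share of *Mdm2* in the counts of *Mdm2* and *Trp53* separated a single library. It was 88.4 and 89.1% in BcorΔE9-10 and 90.6% in BcorWT replicate 2, but 79.3% (exact 95% interval 74.9 to 83.2) in BcorWT replicate 1. The share of *Mdm2* in *Mdm2* and *Mdm4* was 54.5 and 52.2% in BcorΔE9-10 and 48.2 and 54.4% in BcorWT. The balance of the 2 regulators thus overlapped between the genotypes.

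**Figure D3:**
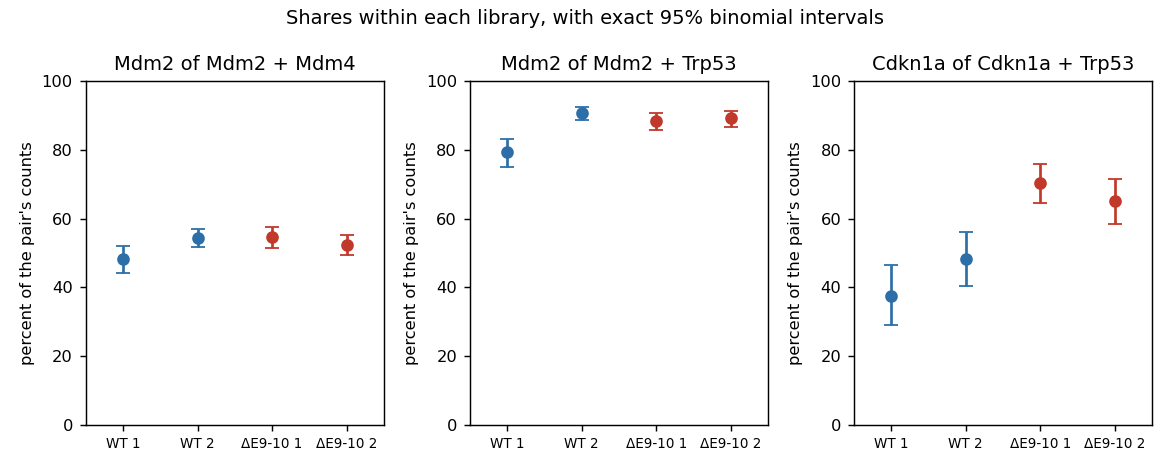
Share of the counts of a gene pair that fell on the named gene in each library (vertical axis, percent), with exact 95% binomial intervals for counting error. The share of *Cdkn1a* against *Trp53* is 65.2 and 70.4% in BcorΔE9-10 and 37.5 and 48.2% in BcorWT, and the panels of *Mdm2* overlap between the genotypes.

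Other genes of the pathway were read from a wider list of 104 regulators and targets, 92 of which matched a row. Of the 92, 45 had a positive and 47 a negative log2 fold change, with a median of -0.0014. An adjusted p under 0.05 in edgeR was reached by 0 of 92 (0.0166% of all genes). Without adjustment 6 were under 0.05 in edgeR, 5 in limma-voom and 4 in DESeq2, beside 533, 515 and 506 of all 12067 genes (4.42% in edgeR). Of the 6, 3 were higher and 3 lower in BcorΔE9-10. The groups did not overlap for 29 of 92, beside 33.9% of all genes.

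Among 14 activators of p53, including the DNA damage kinases, 9 had a positive fold change and 0 an unadjusted p under 0.05. The largest values were those of *Atm*, the kinase that signals double-strand breaks, at 0.67 and of *Wrap53*, the gene beside *Trp53*, at -0.56. *Atm* had 58.6 and 38.8 CPM in BcorΔE9-10 and 42.1 and 19.6 CPM in BcorWT, so its groups overlapped. With a library left out, *Atm* ranged from 0.21 without BcorWT replicate 2 to 1.31 without BcorWT replicate 1, and *Wrap53* from -1.10 without BcorΔE9-10 replicate 1 to -0.11 without BcorWT replicate 2. Among 11 genes that restrain p53, 3 were positive. *Sirt1*, a deacetylase that acts on p53, had 40.8 and 39.3 CPM in BcorΔE9-10 and 27.7 and 14.3 CPM in BcorWT (log2 fold change 0.94 with a standard error of 0.39, adjusted p = 0.945 in edgeR). It was 1.48 without BcorWT replicate 1, with an edgeR adjusted p of 0.0334 where 4.94% of all genes passed, and 0.53 without BcorWT replicate 2. *Cul9*, a cytoplasmic anchor of p53, stood at -0.95 and had the opposite sign, 0.08, without BcorWT replicate 2.

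Of 12 other targets of cell cycle arrest, 3 had a positive fold change, as had 5750 of all 12067 genes, and the list's median was -0.27 where that of all genes was -0.03. The 3 were *Ccng2* (0.63), *Btg1* (0.32) and *Gadd45a* (0.055), none of them under an unadjusted p of 0.05 in edgeR. *Ptp4a1*, a phosphatase, had 27.0 and 75.1 CPM in BcorΔE9-10 and 121 and 104 CPM in BcorWT (log2 fold change -1.13 with a standard error of 0.48, adjusted p = 0.945 in edgeR). It was -0.58 without BcorΔE9-10 replicate 1 and -2.05 without BcorΔE9-10 replicate 2. *Plk3*, a stress kinase, stood at -0.72, and at -0.25 and -1.45 without the same libraries in turn. Of 15 apoptosis genes 6 were positive, with a median of -0.08. *Pmaip1*, which encodes the BH3-only protein Noxa, had 162 and 136 counts in BcorΔE9-10 and 54 and 64 in BcorWT (log2 fold change 0.91 with a standard error of 0.37, adjusted p = 0.945 in edgeR). *Perp*, a membrane protein of the same list, stood at 0.67, and at 0.45 without BcorWT replicate 2.

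The remaining targets were mixed in sign. Of 10 DNA repair genes 6 were positive, and 2 were under an unadjusted p of 0.05, both lower in BcorΔE9-10, beside 4.42% of all genes (3.07% lower). *Mgmt*, which removes alkyl groups from guanine, had 5 and 12 counts in BcorΔE9-10 and 21 and 27 in BcorWT (log2 fold change -1.93 with a standard error of 0.69, adjusted p = 0.945 in edgeR). It was -1.50 without BcorΔE9-10 replicate 1 and -2.56 without BcorΔE9-10 replicate 2. *Rad51c*, of the homologous recombination machinery, had 63 and 54 counts in BcorΔE9-10 and 55 and 162 in BcorWT. Scaled, its level was 11.6 and 8.80 CPM against 16.1 and 30.5 CPM, so both BcorΔE9-10 libraries were lower. The log2 fold change was -1.20 with a standard error of 0.44 (adjusted p = 0.945 in edgeR). Without BcorWT replicate 1 it was -1.58, and without BcorWT replicate 2 it was -0.65. Of 15 genes of metabolism and redox control 10 were positive and 0 were under 0.05, with *Prkab2* at 0.58 and *Ulk1* at -0.72. *Prkab2* was -0.00047 without BcorΔE9-10 replicate 1 and 1.01 without BcorΔE9-10 replicate 2. *Ulk1*, which starts autophagy, turned to 0.40 without BcorWT replicate 2 and was -1.33 without BcorWT replicate 1. Of 15 other targets 8 were positive, with *Arap2* at 1.02 (39.0 and 20.2 CPM against 14.6 and 14.5 CPM) and *Dcxr* at -1.07. *Arap2* was 0.47 without BcorΔE9-10 replicate 1 and 1.42 without BcorΔE9-10 replicate 2.

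**Figure D4:**
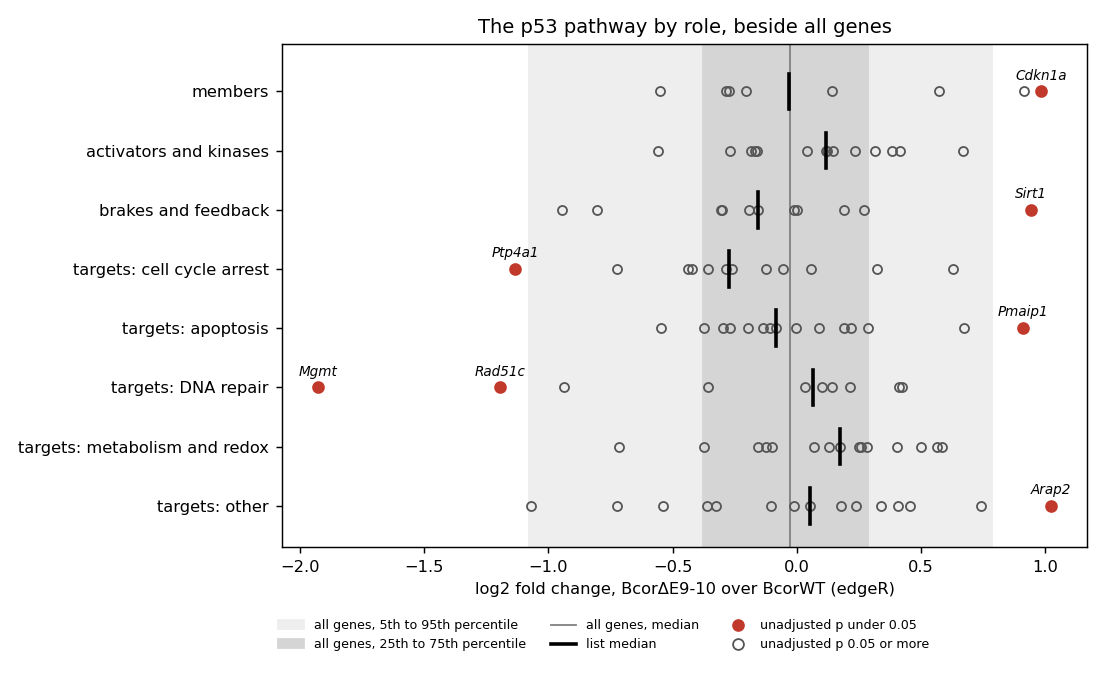
log2 fold change (BcorΔE9-10 over BcorWT, edgeR) of the 8 genes and of each group of the wider list, 1 point a gene, with red for an unadjusted p under 0.05, black bars for list medians and grey bands for all 12067 genes. List medians lie between -0.27 and 0.17, inside the darker band from -0.38 to 0.28 (25th to 75th percentile of all genes), and *Mgmt* at -1.93 is the lowest point.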

How the data were processed

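The 4 libraries were Quant-seq 3′ libraries of sorted donor-derived KL cells. Per the study's methods, the authors removed low-quality reads, trimmed both ends with cutadapt, aligned with HISAT2 to the mouse genome mm10 and counted reads by gene with subread. The submitters' processing notes name cutadapt 1.7. The deposited values are read counts per gene without normalization. The authors' values for BcorΔE9-10 replicate 2 and BcorWT replicate 1 were handled as estimated counts, since *Gm4430*, a symbol of 2 annotated loci, is not whole there. All values were rounded. The filter and the handling of strand are not given in the sources used here.

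Counts were analysed with edgeR 4.0.16 in R 4.3.3, using filterByExpr (0 genes removed), TMM scaling, a quasi-likelihood F test and Benjamini-Hochberg adjustment over 12067 genes. The prior count was 0.125 for log2 fold changes and 2 for log2 CPM, standard errors are the fold change over the square root of F, and 95% intervals use the test's degrees of freedom. Shares carry exact Clopper-Pearson intervals. Alternatives were limma-voom (limma 3.58.1, the study's tool), DESeq2 1.42.0, its size factors, other filters and prior count, the replicate number as a block, each library left out and *Gm42418* left out. The deviations of same-numbered libraries correlated at -0.0945.

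The genes, lists and tests were chosen with earlier results of these data known. From the wider list, 14 genes were named by rule, as those with an unadjusted p under 0.05 and the 2 largest absolute fold changes in each of its 7 groups. Older symbols were matched through RefSeq. Positions are from GENCODE M21 (GRCm38), pseudogene identity from blastn 2.17.0, and figures from matplotlib 3.10.9. On simulated counts for this comparison, over 11741 genes tested, edgeR recovered 87 of 98 genes changed by 3 on the log2 scale. It recovered 21 of 99 changed by 1.5, with 3 false among 111 calls. Each gene was drawn at edgeR's trended dispersion, and libraries differed only in depth and in the changes set. The spread between the real libraries was not reproduced, so these figures do not give the recovery or false calls of the real comparison.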

Additional observations from a re-analysis of the deposited data

How the results depend on the processing

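None of the 8 genes passed adjustment under any of the 12 alternative settings. Their fold changes kept sign in all 63 values from settings with 4 libraries and in 29 of 32 with a library left out. The exceptions, as lowest and highest values with a library left out, were *Mdm2* (-0.55 and 0.25), *Ei24* (-0.58 and 0.12) and *Ccng1* (-0.023 and 0.29). Among the 14 genes of the wider list named by rule (such values were not read for the others), they were *Cul9* (-1.59 and 0.079), *Ulk1* (-1.33 and 0.40) and *Prkab2* (-0.00047 and 1.01). *Mdm2*, *Ei24*, *Cul9* and *Ulk1* reversed without BcorWT replicate 2, *Ccng1* without BcorΔE9-10 replicate 2 and *Prkab2* without BcorΔE9-10 replicate 1. With a library left out, 0 to 4 of the 92 wider-list genes passed adjustment, the 4 without BcorWT replicate 1, where 4.94% of all genes did.

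Over all genes 2 passed adjustment, against 5 with at least 10 counts in every library, 4 with limma-voom, 43 with DESeq2 and 6 to 596 with a library left out (6 and 34 without BcorΔE9-10 replicates 1 and 2, 596 and 30 without BcorWT replicates 1 and 2). A group left with 1 library is assumed to vary like the other, and the cause was not tested. With the replicate block 14 genes passed, 0 of the 8, and the numbers do not show that libraries were paired.

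The median of the 8 genes was -0.20 with at least 10 counts in every library, which leaves out *Sesn2*, and -0.10 to 0.18 with a library left out. With a library left out, 0 to 2 of the 8 had an unadjusted p under 0.05, with 0 without BcorΔE9-10 replicates 1 and 2 (2.01 and 3.10% of all genes), 1 without BcorWT replicate 1 (24.98%) and 2 without BcorWT replicate 2 (5.71%). Likewise 5 to 8 had groups that did not overlap, the 8 without BcorWT replicate 1, where 81.5% of all genes did (58.2 to 69.2% without another library). These last counts were added after the data were seen. At 8 to 39 counts a library, depth limits *Sesn2* most.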
